A study of Mus musculus with 6 samples.

Results

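The 10 genes described here are ones by which macrophages that enter the brain from the blood, or that live at its borders, are commonly told from microglia, together with receptors that all of these cells share. They are Ccr2, F13a1, Ms4a6c, Lyz2, Mrc1, Pf4, Ms4a7, Cd44, Fcgr3 and Fcer1g. They were taken by gene symbol, 10 of the 24459 genes in the deposited gene table, with their 33 isoforms of the 75457 in the isoform table. The samples were perihematomal brain tissue, the tissue around the clot, from mice labelled WT 5 days after an intracerebral haemorrhage (ICH), a bleed made inside the brain. The mice had received TEPP-46, an activator of the glycolytic enzyme pyruvate kinase M2, or its vehicle for 5 days in a row after it. Each group had 3 libraries of PCR-amplified cDNA read on a nanopore sequencer, named T1, T2 and T3 for TEPP-46 and C1, C2 and C4 for vehicle. All mice carried the haemorrhage, so no library shows these genes in uninjured brain, and strain, sex, age and the number of animals behind a library are not stated in the labels.

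After a brain haemorrhage, monocytes leave the blood through the chemokine receptor CCR2 and become macrophages beside the resident microglia. Macrophages of the meninges, perivascular spaces and choroid plexus are a separate resident population, known for the mannose receptor and for platelet factor 4 in mice. The 10 genes differ in how far they belong to those cells alone: microglia also express Fcgr3 and Fcer1g, reactive astrocytes Cd44, neutrophils Lyz2, and platelets and their precursors carry Pf4 and F13a1 transcripts.

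Libraries held between 5286426 and 6025064 gene counts. Neuron, astrocyte and oligodendrocyte genes were present in every library, but the pieces of tissue were not alike. Choroid plexus genes summed to 2255 to 3999 CPM (a count scaled by its library's total) in TEPP-46 and to 4998 in C1, 211 in C2 and 184 in C4 among the vehicle libraries. Oligodendrocyte genes summed to 13170 to 15350 CPM in TEPP-46 and to 13630, 13420 and 5361 CPM in C1, C2 and C4. The part of these differences between tissue pieces in the results below was not tested. In whole tissue, more cells of a type and more RNA per cell cannot be told apart.

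Promoters are shown for genes whose starts matter to the results: Lyz2 and Fcer1g, the deepest counted members, whose levels moved together across libraries, and F13a1 and Ms4a7, whose isoforms begin at separate starts. Each sequence runs from 250 bases before to 50 after the start in RefSeq (GRCm38.p6), 5′ to 3′ along the gene, and all 6 lie on the minus strand. Capitals mark the letters GAGGAA, the core bound by the myeloid factor PU.1, and GGAAGT, a core shared by factors of the ETS family, on either strand (TTCCTC and ACTTCC).
Lyz2, chr10:117282223-117282522: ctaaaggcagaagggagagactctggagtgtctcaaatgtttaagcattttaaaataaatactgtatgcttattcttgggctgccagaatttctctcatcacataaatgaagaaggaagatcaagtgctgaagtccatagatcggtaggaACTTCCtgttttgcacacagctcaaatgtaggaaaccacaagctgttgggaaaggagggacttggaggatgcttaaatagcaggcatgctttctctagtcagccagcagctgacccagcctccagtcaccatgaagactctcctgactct
Fcer1g, chr1:171234300-171234599: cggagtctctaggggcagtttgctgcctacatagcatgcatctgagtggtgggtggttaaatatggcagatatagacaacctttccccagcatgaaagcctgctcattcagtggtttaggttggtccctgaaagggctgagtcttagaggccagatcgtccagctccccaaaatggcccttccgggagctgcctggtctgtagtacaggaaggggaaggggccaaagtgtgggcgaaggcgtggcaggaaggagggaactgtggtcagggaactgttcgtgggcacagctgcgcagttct
F13a1, the start nearest that of F13a1-201, chr13:37049164-37049463: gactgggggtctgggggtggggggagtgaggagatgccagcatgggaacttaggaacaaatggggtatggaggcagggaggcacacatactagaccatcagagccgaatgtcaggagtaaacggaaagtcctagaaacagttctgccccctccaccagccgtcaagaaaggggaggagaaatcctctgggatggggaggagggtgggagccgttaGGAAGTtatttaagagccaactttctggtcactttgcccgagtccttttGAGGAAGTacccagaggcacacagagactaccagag
F13a1, the start nearest that of F13a1-202, chr13:37050195-37050494: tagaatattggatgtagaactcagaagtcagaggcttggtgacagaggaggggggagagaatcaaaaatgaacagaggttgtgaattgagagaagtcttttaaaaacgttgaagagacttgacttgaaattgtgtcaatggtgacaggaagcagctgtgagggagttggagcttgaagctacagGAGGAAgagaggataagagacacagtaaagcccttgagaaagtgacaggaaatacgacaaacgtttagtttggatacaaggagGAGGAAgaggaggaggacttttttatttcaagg
Ms4a7, the start nearest that of Ms4a7-201, chr19:11334646-11334945: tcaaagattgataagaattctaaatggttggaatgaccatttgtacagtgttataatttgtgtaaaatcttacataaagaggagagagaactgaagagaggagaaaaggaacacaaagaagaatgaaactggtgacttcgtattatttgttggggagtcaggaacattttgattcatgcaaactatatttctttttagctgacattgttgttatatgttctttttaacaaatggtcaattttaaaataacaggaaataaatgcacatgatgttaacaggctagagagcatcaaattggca
Ms4a7, the start nearest that of Ms4a7-202 and Ms4a7-203, chr19:11336097-11336396: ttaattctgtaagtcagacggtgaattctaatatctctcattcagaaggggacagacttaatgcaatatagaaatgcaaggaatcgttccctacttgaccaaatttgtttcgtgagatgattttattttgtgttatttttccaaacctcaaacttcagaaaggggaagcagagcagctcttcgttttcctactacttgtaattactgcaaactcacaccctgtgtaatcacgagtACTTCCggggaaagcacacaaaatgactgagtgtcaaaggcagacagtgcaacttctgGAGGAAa
The members had 13 promoter entries, and all 10 genes had at least 1. F13a1, Fcgr3 and Ms4a7 had 2 each. The 2 Fcgr3 entries, with starts at 171059394 and 171059403, overlap and hold the same GAGGAA match, which is counted in both. A gene with 2 entries has more sequence in which to match, so counts of genes are not directly comparable with percentages of single promoters. GAGGAA was found in 6 of the 10 genes, in 8 of 13 entries, and in 28.3% of all 32851 promoters of that length. GGAAGT was found in 6 of the 10 genes, in 6 of 13 entries, and in 23.8% of all promoters. Either was found in 8 of the 10 genes, in 10 of 13 entries, and in 43.4% of all promoters. The 2 motifs share letters in 1 place in Pf4 and in 1 place in the first F13a1 entry. No match lay in these windows for Ccr2 and Fcer1g. A match is a run of letters and was not tested for binding.

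**Figure D1:**
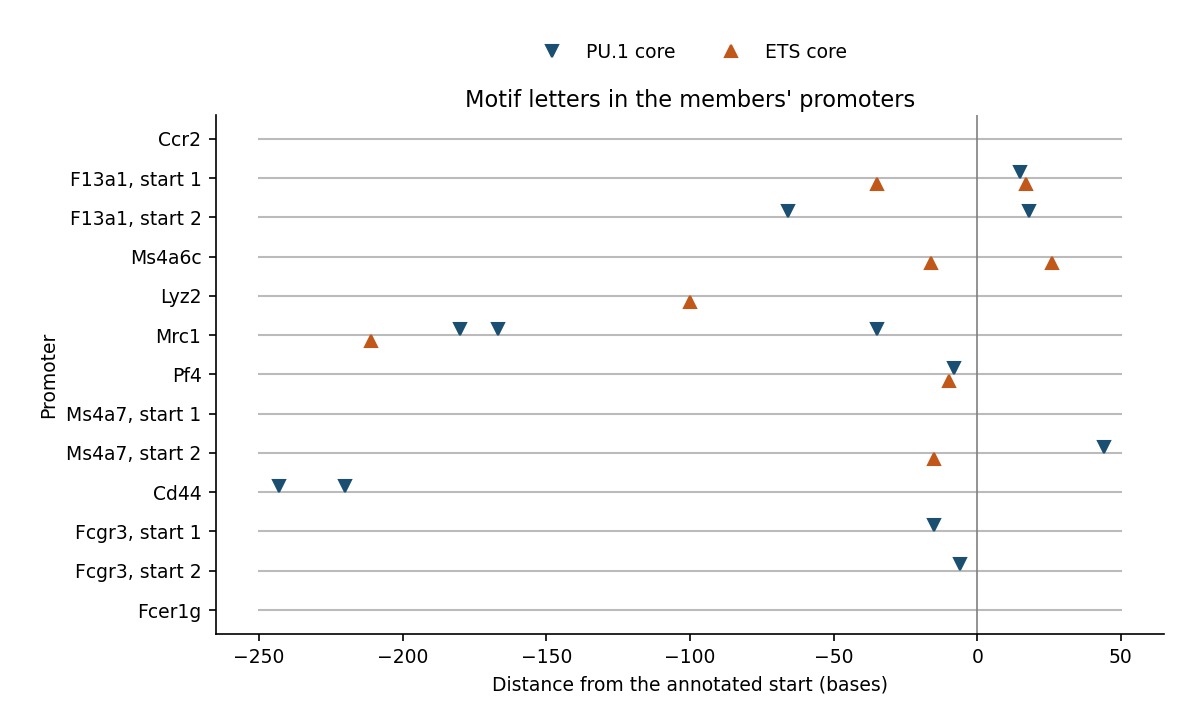
Positions of the PU.1 core letters (triangles pointing down) and the ETS core letters (triangles pointing up) in the 13 RefSeq promoter entries of the 10 genes, as distance in bases from the annotated start, drawn along the gene. Ccr2, Fcer1g and the first Ms4a7 start hold neither, and Mrc1 holds 3 of the first and 1 of the second.

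Isoform pieces are shown where annotated forms of a member differ inside the coding part. They are transcript sequence of GENCODE M21 (GRCm38, minus strand), with the bases that differ in capitals.
Fcer1g-203, capitals chr1:171230922-171230995, an extension of the third exon by 74 bases that Fcer1g-201 lacks: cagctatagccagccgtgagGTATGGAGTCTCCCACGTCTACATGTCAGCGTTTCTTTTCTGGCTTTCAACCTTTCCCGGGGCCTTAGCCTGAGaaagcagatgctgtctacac
Ms4a7-203, capitals chr19:11325807-11325863, an exon of 57 bases that Ms4a7-202 lacks: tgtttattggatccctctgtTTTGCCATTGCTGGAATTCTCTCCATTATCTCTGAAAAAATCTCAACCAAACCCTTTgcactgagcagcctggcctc
Fcgr3-201, capitals chr1:171057946-171057948, 3 bases at the start of the third exon: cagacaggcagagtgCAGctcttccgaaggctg
Fcgr3-204, the same junction without them: cagacaggcagagtgctcttccgaaggctg

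None of the 10 genes differed between TEPP-46 and vehicle beyond the spread between libraries. The genes were present in every library, and they varied between libraries within both groups: C2 held the most counts of 6 of the 9 genes that could be tested and C4 the fewest of 7. For Lyz2, Ms4a6c, F13a1, Fcgr3 and Fcer1g, the 3 TEPP-46 libraries lay within the range of the vehicle libraries. Of the 10 genes, 9 passed the filter on low counts and Mrc1 did not. In edgeR (quasi-likelihood F test, Benjamini-Hochberg adjustment over 14441 genes) 0 of the 9 were called, against 0.0% of all tested genes in either direction. At an unadjusted p under 0.05, 0 of the 9 passed, against 1.88% of tested genes higher and 4.05% lower in TEPP-46. DESeq2 and limma-voom called 0 members, and DESeq2 called 0.553% of the genes it tested. The 2 groups overlapped in all 10 genes, whereas 11.4% of tested genes had groups that did not overlap (5.67% higher and 5.76% lower in TEPP-46).

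**Figure D2:**
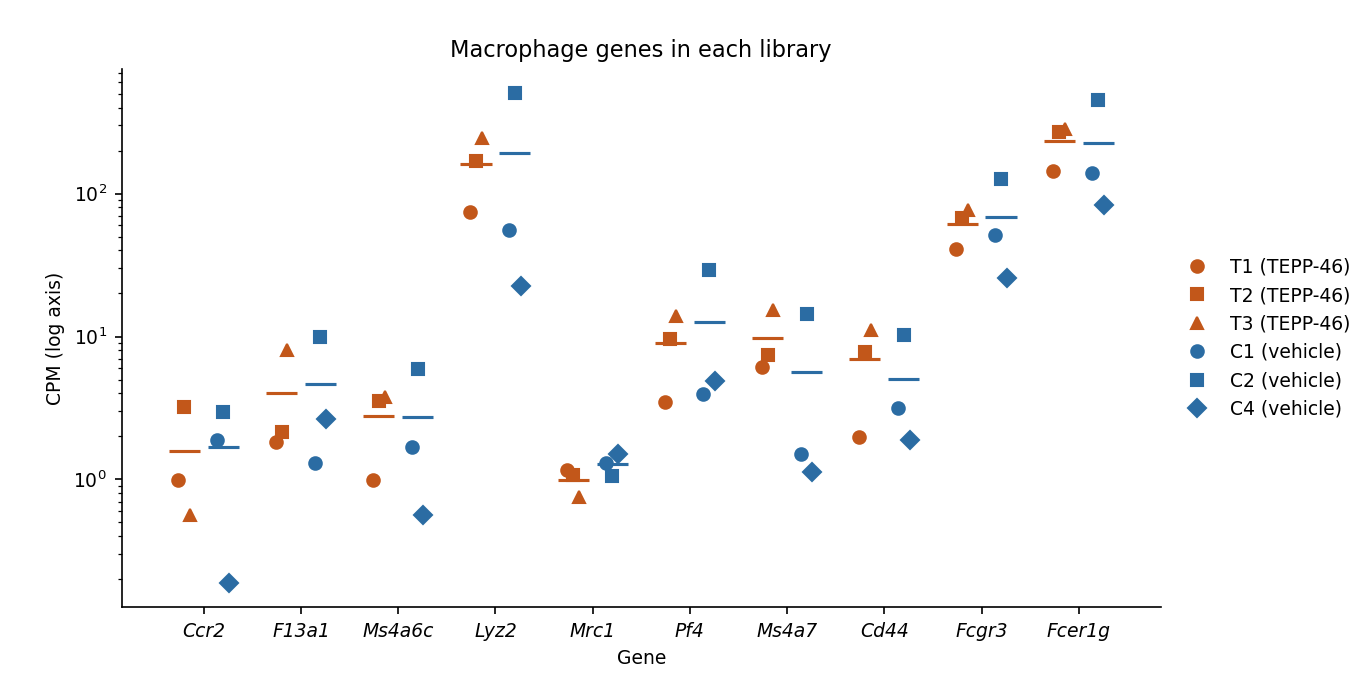
CPM of each gene (log axis) in the 3 TEPP-46 libraries (orange) and the 3 vehicle libraries (blue), 1 point a library, with the group mean as a horizontal line. The groups overlap in all 10 genes, and the vehicle points of Lyz2 run from 22.5 CPM in C4 to 502 CPM in C2.

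Ccr2 (chromosome 9, 124101950 to 124113557, GRCm38) encodes the receptor for CCL2 that draws monocytes out of the blood. It had 6, 18 and 3 counts in T1, T2 and T3, against 10, 17 and 1 in C1, C2 and C4. T2 and C2 stood highest and C4 lowest, and both groups spanned nearly the same range. The log2 fold change was -0.10 with an SE of 0.82 (edgeR adjusted p = 0.998). With 27 counts in all in TEPP-46 and 28 in vehicle, the difference was well within the SE.

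F13a1 (chromosome 13, 36867178 to 37050244) encodes the A subunit of coagulation factor XIII, the transglutaminase that crosslinks fibrin. Its counts were 11, 12 and 43 in T1, T2 and T3, against 7, 57 and 14 in C1, C2 and C4. T3 and C2 stood apart from the other libraries of their groups. The log2 fold change was -0.26 (SE 0.80). Lyz2 (chromosome 10, 117277331 to 117282321) encodes lysozyme, which cleaves bacterial cell walls. It was at 73.9, 168 and 245 CPM in T1, T2 and T3, against 55.4, 502 and 22.5 CPM in C1, C2 and C4. C2 lay above and C1 and C4 below all TEPP-46 libraries. Lyz2 averaged 162 ± 85.7 CPM in TEPP-46 and 193 ± 268 CPM in vehicle (SD, n = 3 per group). Its log2 fold change was -0.28 with an SE of 1.20 (edgeR adjusted p = 0.997). The highest vehicle library was 22.3-fold above the lowest, and the highest TEPP-46 library 3.32-fold above the lowest. Only 0.125% of tested genes spread more widely across the 6 libraries on the log2(CPM + 1) scale. Reads of the near-identical gene Lyz1 could be counted with Lyz2 or the reverse. Lyz1 had 0 to 10 counts a library, which cannot show how many of its reads were counted as Lyz2.

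Ms4a6c and Ms4a7 belong to the family of membrane-spanning 4A proteins, and lie 133 kb apart on chromosome 19. Ms4a6c (11469366 to 11482192) had 6, 20 and 20 counts in T1, T2 and T3, against 9, 34 and 3 in C1, C2 and C4. C2 was highest and C4 lowest, and the log2 fold change was -0.03 (SE 0.76). Ms4a7 (11321039 to 11336146), used to mark macrophages that are not microglia, had 37, 42 and 82 counts in T1, T2 and T3, against 8, 82 and 6 in C1, C2 and C4. C1 and C4 lay below all TEPP-46 libraries and C2 matched the count of T3. Its mean was 9.69 ± 5.04 CPM in TEPP-46 and 5.67 ± 7.55 CPM in vehicle (SD, n = 3 per group), and its log2 fold change was 0.73 with an SE of 0.90 (edgeR adjusted p = 0.993). Ms4a6b and Ms4a6d, close relatives of Ms4a6c, had 1 to 32 and 1 to 77 counts, so reads could be divided among them.

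Mrc1 and Pf4 are known as genes of border macrophages. Mrc1 (chromosome 2, 14229392 to 14332057), the mannose receptor CD206, had 7, 6 and 4 counts in T1, T2 and T3, against 7, 6 and 8 in C1, C2 and C4. These are the narrowest values among the 10 genes, and C2 and C4 did not stand apart. Mrc1 averaged 0.994 ± 0.214 CPM in TEPP-46 and 1.29 ± 0.231 CPM in vehicle (SD, n = 3 per group; exact two-sided permutation p = 0.3, where 0.1 is the smallest possible). Pf4 (chromosome 5, 90772435 to 90773383), a chemokine also called CXCL4, had 21, 54 and 74 counts in T1, T2 and T3, against 21, 166 and 26 in C1, C2 and C4. C2 held more than any other library, and C1 and C4 were close to T1. The mean was 9.01 ± 5.25 CPM in TEPP-46 and 12.7 ± 14.3 CPM in vehicle (SD, n = 3 per group), and the log2 fold change was -0.53 with an SE of 0.84 (edgeR adjusted p = 0.997). Ppbp, a platelet chemokine gene beside Pf4, had 0 counts in 5 libraries and 1 in C2, while the platelet list genes Gp1bb and Itga2b had 100 and 14 counts in C2. Their part in the Pf4 counts was not tested.

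Cd44 (chromosome 2, 102811141 to 102901665) encodes a receptor for hyaluronan and osteopontin. It had 12, 44 and 59 counts in T1, T2 and T3, against 17, 58 and 10 in C1, C2 and C4. T1, C1 and C4 were low and the 3 other libraries high, across both groups. The log2 fold change was 0.42 with an SE of 0.72 (edgeR adjusted p = 0.997).

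Fcgr3 and Fcer1g encode partners: Fcgr3 the low-affinity receptor for IgG, and Fcer1g the gamma chain with the signalling motif that Fc receptors share. They lie 165 kb apart on chromosome 1 (171051174 to 171064935 and 171229572 to 171234365). Fcgr3 was at 41.0, 67.2 and 76.9 CPM in T1, T2 and T3, against 51.7, 127 and 25.7 CPM in C1, C2 and C4. Fcer1g was at 143, 271 and 281 CPM in T1, T2 and T3, against 138, 455 and 83.4 CPM in C1, C2 and C4. Both were highest in C2 and lowest in C4. The means were 61.7 ± 18.6 CPM in TEPP-46 and 68.1 ± 52.6 CPM in vehicle for Fcgr3, and 232 ± 77.2 CPM in TEPP-46 and 226 ± 201 CPM in vehicle for Fcer1g (SD, n = 3 per group). The log2 fold change was -0.16 (SE 0.56) for Fcgr3 and 0.02 (SE 0.65) for Fcer1g, and neither passed (edgeR adjusted p = 0.997 and 0.998). Fcgr2b and Fcgr4, near relatives of Fcgr3, had 18 to 146 and 1 to 14 counts a library.

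The median log2 fold change of the 9 tested genes was -0.10, 3 of them positive, beside 0.01 for all tested genes. The authors' deposited table lists all 10 as unchanged, with log2 fold changes between -0.10 and 0.14 and p-values between 0.524 and 0.992. The log2 fold change of Lyz2 is -0.03 in the authors' deposited table, with a DESeq2 p of 0.818. DESeq2 run here gave Lyz2 the same p of 0.818 with a log2 fold change of -0.29. The deposited log2 fold changes are thus on a smaller scale and cannot be set directly against those given here. The reason was not tested.

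The 6 genes with a negative log2 fold change turned positive when the vehicle library C2 was left out. All 9 tested genes were then positive, with a median of 1.06, beside 51.7% of all tested genes. Lists of other genes, described below, shifted too. Positive without C2 were 11 of 11 Fc receptor and signalling genes (median 1.12) and 9 of 11 further monocyte and macrophage genes (1.08). So were 10 of 12 homeostatic microglia genes (0.55) and 5 of 5 red blood cell genes (0.72), against 4 of 8 neuron genes (-0.05). Without C2, Lyz2 was at 2.06 (SE 0.58), Ms4a7 at 2.85 (SE 0.53) and Fcer1g at 1.06 (SE 0.31). Those 3 passed an unadjusted p under 0.05, against 4.51% of tested genes higher and 5.67% lower, and none of the 9 passed the adjustment (edgeR adjusted p = 0.287 for Lyz2, 0.0743 for Ms4a7 and 0.252 for Fcer1g). In Lyz2, Ms4a7 and Fcer1g every TEPP-46 library was above both C1 and C4, as in 13.7% of tested genes. Without C4, 2 of the 9 were positive, Ms4a7 at 0.25 and Cd44 at 0.03. Without T1, 8 of the 9 were positive. Leaving out T2 moved Ccr2 to -1.10, and leaving out T3 moved F13a1 to -1.25.

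**Figure D3:**
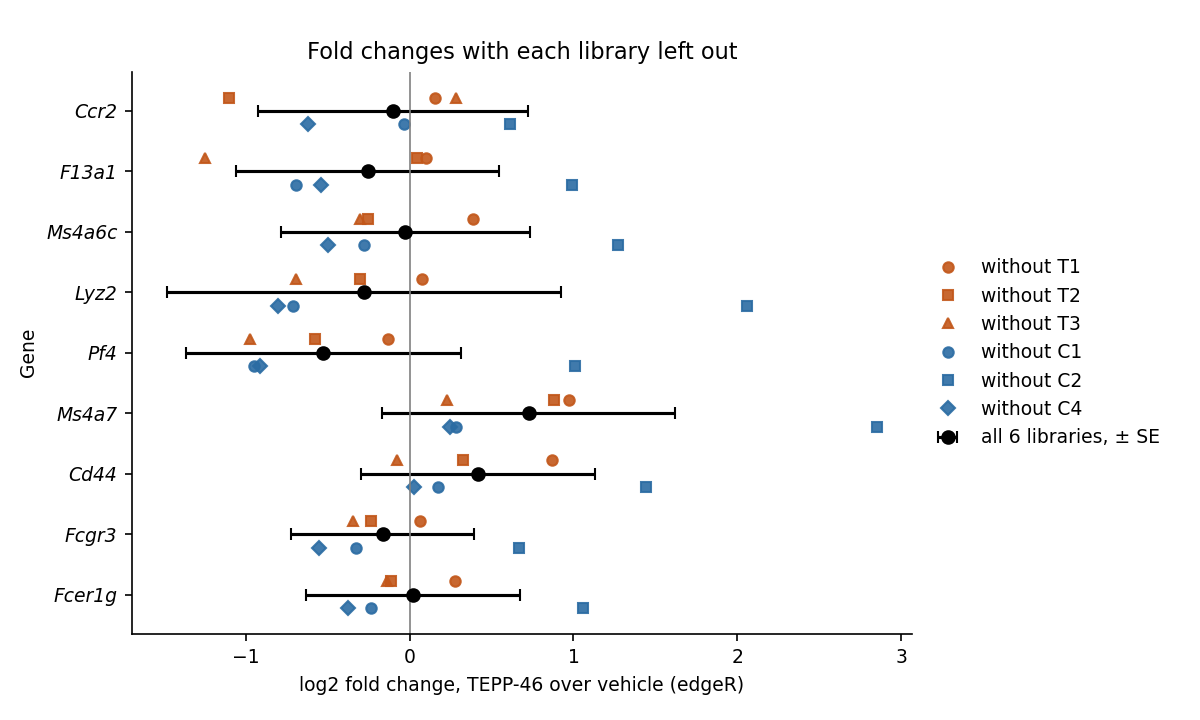
Log2 fold change of TEPP-46 over vehicle by edgeR for the 9 tested genes, with all 6 libraries (black, bars are ± SE) and with each library left out (orange for a TEPP-46 library, blue for a vehicle library). The value without C2 (blue squares) is above 0 in all 9 genes and reaches 2.85 in Ms4a7, while most other points lie within the SE of the fit of all libraries.

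The members varied far more between libraries than most tested genes did. This was not particular to them, since Spp1, Arg1 and Lgals3, described below, also varied widely. The range over the 6 libraries on the log2(CPM + 1) scale had a median of 2.26 in the 9 tested members and of 0.72 in all tested genes. The narrowest of the 9 on this scale, Ccr2, had a range of 1.82, which 5.12% of tested genes exceeded. The added 1 CPM narrows the range of genes with few counts. In plain CPM, Ccr2 was 16.9-fold higher in T2 than in C4, on 18 and 1 counts, and Fcgr3 4.94-fold higher in C2 than in C4. On the log2(CPM + 1) scale the members' mean deviation from their own average was -0.56, 0.36 and 0.67 in T1, T2 and T3, against -0.60, 1.28 and -1.14 in C1, C2 and C4. C2 was among the 2 highest libraries in 9 of the 9 and T3 in 8. The SD of these log2 values was lower in TEPP-46 than in vehicle in 8 of the 10 members, as in 61.0% of tested genes, and higher in Cd44 and Mrc1. With 3 libraries a group, whether the spread itself differs between the groups was not tested.

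Levels of most members moved together across libraries, the deepest counted ones most closely. Over the 36 pairs of the 9 tested genes, Pearson's r of log2(CPM + 1) over 6 libraries ran from 0.04 to 0.99 with a median of 0.85. Over the 4 libraries left without C2 and C4 the same pairs ran from -0.64 to 0.99 with a median of 0.84. For Lyz2, Fcgr3 and Fcer1g, the genes with 1000 or more counts, it was 0.97 to 0.99, and 0.87 to 0.97 without C2 and C4. Mrc1 did not join them, at -0.90 to -0.18 with the 9 others, on 4 to 8 counts a library. These values are a description of 6 libraries, and all genes of a library share its tissue and its depth.

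The ratio between members was not the same in every library. Lyz2 had 0.517, 0.621 and 0.871 counts per Fcer1g count in T1, T2 and T3, against 0.400, 1.104 and 0.270 in C1, C2 and C4. Lyz2 counts exceeded Fcer1g counts in C2 alone. Fcgr3 had 0.287, 0.248 and 0.274 counts per Fcer1g count in T1, T2 and T3, against 0.374, 0.279 and 0.308 in C1, C2 and C4. The Fcgr3 ratio kept a narrower range than the Lyz2 ratio. Groups overlapped in both, with exact two-sided permutation p = 0.8 for the Lyz2 ratio and 0.2 for the Fcgr3 ratio (0.9 and 0.88 after Benjamini-Hochberg adjustment over the 11 ratios and shares compared).

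Markers of some other cells moved with the members. The 12 homeostatic microglia genes, Fcrls among them, summed to 722, 979 and 1001 CPM in T1, T2 and T3, against 683, 1381 and 449 CPM in C1, C2 and C4. All 12 were highest in C2 and 10 were lowest in C4, with a median log2 fold change of 0.04. Per 100 microglia counts, Lyz2 had 10.2, 17.2 and 24.5 in T1, T2 and T3, against 8.11, 36.4 and 5.02 in C1, C2 and C4. The order of the libraries was the same as for Lyz2 itself, and the groups overlapped (exact two-sided permutation p = 0.9). Fcer1g per 100 microglia counts lay between 19.8 and 28.1 in TEPP-46 and between 18.6 and 33.0 in vehicle. Red blood cell genes, led by Hba-a2, summed to 560, 645 and 748 CPM in T1, T2 and T3, against 458, 1053 and 319 CPM in C1, C2 and C4. They too were highest in C2 and lowest in C4, and their part in the members' values was not tested. The 12 neutrophil genes summed to 17.3, 28.3 and 48.6 CPM in T1, T2 and T3, against 15.5, 54.7 and 9.84 CPM in C1, C2 and C4, mostly from Lcn2, which reactive astrocytes also express, Cxcr2 and Csf3r. Of the defining neutrophil genes, Ly6g and Retnlg had 0 counts in all 6 libraries. S100a8 had 0, 10 and 16 counts in T1, T2 and T3, against 1, 9 and 2 in C1, C2 and C4, and S100a9 had 0, 1 and 6 in T1, T2 and T3, against 0, 14 and 0 in C1, C2 and C4. S100a9 was thus highest in C2, like most members, but S100a8 was highest in T3 and Csf3r in T2. Cxcr2 ran the other way, lowest in C2 at 3.684 CPM and highest in C4 at 6.999 CPM. Of the 3 tested neutrophil genes, 1 was highest in C2 (Lcn2) and 2 were lowest in C4. The part of neutrophils in the members' values was not tested. The sum of the 11 platelet genes did not move with the members, at 23.2 to 36.5 CPM in TEPP-46 and 21.6 to 26.3 CPM in vehicle. It was mostly Gp1bb and Itga2b, with 680 and 149 counts over all libraries. The other platelet genes had at most 7 counts a library, so the sum says little about platelet content. Lymphocyte genes summed to 6.40 to 8.67 CPM in TEPP-46 and 3.18 to 11.9 CPM in vehicle.

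**Figure D4:**
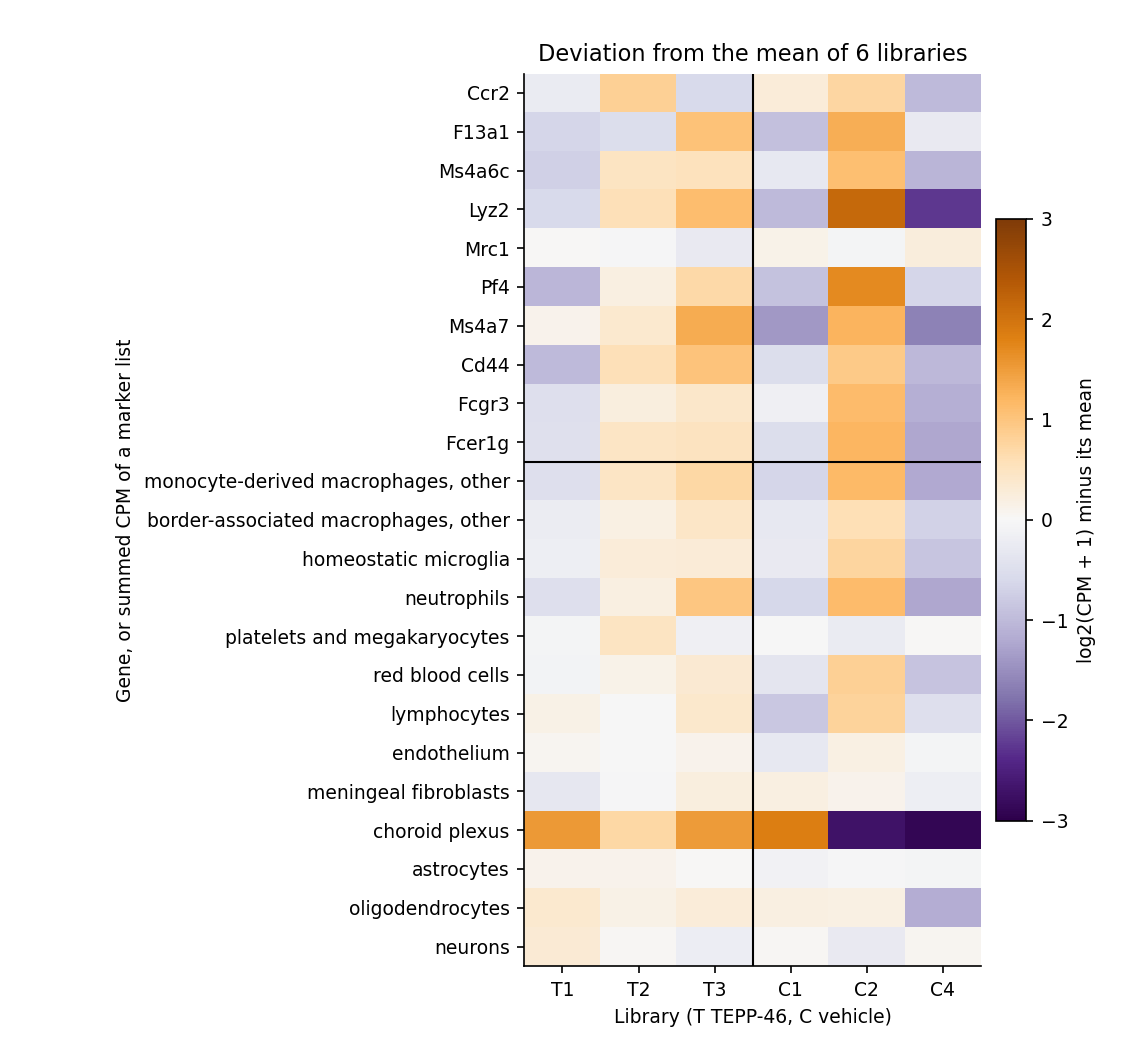
Deviation of log2(CPM + 1) from its mean over the 6 libraries, for the 10 genes (above the line) and for the summed CPM of marker lists (below it), with TEPP-46 libraries left of vehicle libraries. C2 is above the mean for 9 of the 10 genes and for microglia, neutrophil and red blood cell lists, C4 is below it for the same, and the choroid plexus list is at -2.70 in C2 and -2.90 in C4.

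The sums of the tissue lists did not follow the members, though single genes in them did. Endothelial genes, led by Ly6c1 and Itm2a, summed to 239 to 258 CPM in TEPP-46 and 198 to 273 CPM in vehicle, and meningeal fibroblast genes, with Igf2 and Dcn, to 70.9 to 103 CPM in TEPP-46 and 78.5 to 102 CPM in vehicle. Within the fibroblast list, the collagen gene Col3a1 was at 1.49, 5.87 and 7.35 CPM in T1, T2 and T3, against 2.25, 10.5 and 0.757 CPM in C1, C2 and C4. Astrocyte genes (Aldoc, Slc1a2) summed to 3983 to 4293 CPM in TEPP-46 and 3654 to 3841 CPM in vehicle. Those 2 groups did not overlap, and neither Aldoc nor Slc1a2, which made up most of the sum, was called by edgeR. Of the 8 astrocyte genes, 6 were highest in C2 and 6 lowest in C4. Gfap, the intermediate filament gene of reactive astrocytes, was at 158, 247 and 348 CPM in T1, T2 and T3, against 175, 417 and 59.4 CPM in C1, C2 and C4. Col3a1 and Gfap, both named with their values known, were highest in C2 and lowest in C4. Neuron genes (Syt1, Snap25) summed to 3122 to 4465 CPM in TEPP-46 and 2986 to 3758 CPM in vehicle. The choroid plexus genes Ttr and Enpp2 and the myelin gene Mbp carried the differences between tissue pieces given at the start. Ttr was at 3151, 1778 and 3161 CPM in T1, T2 and T3, against 4053, 0.526 and 13.6 CPM in C1, C2 and C4. C2 and C4, the libraries at the 2 ends of the members' range, were both nearly without Ttr.

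Other genes of the same cells and pathways were not called either. Of the 125 tested genes of all lists, edgeR called 0 and DESeq2 called 0. At an unadjusted edgeR p under 0.05, 3 passed (Dcn, Otx2 and Clic6). Of 13 further border macrophage genes 5 were tested, 3 with a positive log2 fold change, and the median was 0.08. Of these 5, 2 were highest in C2 and 1 was lowest in C4. Stab1, a scavenger receptor, averaged 8.78 ± 5.32 CPM in TEPP-46 and 8.08 ± 6.99 CPM in vehicle, and Dab2, an endocytic adaptor, 21.9 ± 7.27 CPM in TEPP-46 and 15.2 ± 11.7 CPM in vehicle (SD, n = 3 per group). The defining border genes Lyve1, Cd163 and Folr2, chosen after their values were seen, had 3 to 9, 2 to 15 and 1 to 11 counts a library. Of 16 further monocyte and macrophage genes 11 were tested, 6 with a positive log2 fold change, and the median was 0.01. Of these 11, 8 were highest in C2 and 7 were lowest in C4. Maf of the border list and Itga4 of this list, both named with their values known, were instead lowest in C2. Lgals3, the galectin-3 gene, was at 104, 290 and 320 CPM in T1, T2 and T3, against 56.4, 530 and 23.3 CPM in C1, C2 and C4. S100a6 was also lowest in C4 and highest in C2. The classical monocyte genes Ly6c2, Plac8 and Chil3, chosen after their values were seen, had at most 9, 12 and 7 counts a library. Arg1, an arginase gene of repair macrophages chosen in the same way, had 3, 61 and 217 counts in T1, T2 and T3, against 16, 332 and 4 in C1, C2 and C4.

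Among the partners of single members, 11 of 15 genes of Fc receptors and their signalling were tested, 8 of them above 0 on the log2 fold change scale, and the median was 0.07. Tyrobp, the related adaptor DAP12, averaged 308 ± 113 CPM in TEPP-46 and 292 ± 258 CPM in vehicle, and Trem2 50.8 ± 14.2 CPM in TEPP-46 and 49.9 ± 38.2 CPM in vehicle (SD, n = 3 per group). Of 10 ligands of CCR2 and other monocyte factors 6 were tested, with a median of 0.06, and their sum stayed within 294 to 327 CPM in TEPP-46 and 283 to 323 CPM in vehicle. That sum was mostly Cx3cl1 and Il34, made by neurons, while Ccl2, the main ligand of CCR2 and chosen after its values were seen, had 4, 15 and 33 counts in T1, T2 and T3, against 3, 60 and 1 in C1, C2 and C4. Of 14 ligands and partners of CD44 10 were tested, with a median of 0.12. Spp1, the osteopontin gene, was at 362, 1499 and 2220 CPM in T1, T2 and T3, against 176, 3734 and 108 CPM in C1, C2 and C4, an order of libraries equal to that of Lyz2. Rdx, a cytoskeletal linker, averaged 57.5 ± 15.7 CPM in TEPP-46 and 63.2 ± 6.12 CPM in vehicle (SD, n = 3 per group). The 4 tested C-type lectin genes of 10, Clec4a3 and Clec7a among them, had negative log2 fold changes with a median of -0.36. Of 13 coagulation and transglutaminase genes 6 were tested, with a median of 0.12 and with F3 (tissue factor) and Tgm2 the deepest. Of 11 other Ms4a genes 2 were tested, Ms4a6b at 1.11 (SE 0.68) and Ms4a6d at 0.03 (SE 1.00) on the log2 fold change scale.

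The genes outside the members whose levels were most like theirs were Igsf6, Tgfbi, C1qb, Tyrobp and Cyba. Likeness was Pearson's r over the 6 libraries with the mean of the 9 standardised members, and it was 0.998, 0.997, 0.996, 0.995 and 0.995. C1qb, a complement subunit gene of microglia and macrophages, had 707, 1107 and 1208 counts in T1, T2 and T3, against 614, 2028 and 377 in C1, C2 and C4. Igsf6 had only 4 to 37 counts a library. The 5 genes had log2 fold changes between -0.17 and 0.06 and were not called by edgeR. In all, 535 genes outside the members, 3.71% of those tested, had an r above 0.9.

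At the level of isoforms, 16 of the 33 passed the filter on low counts. By edgeR, 0 of the 16 were called, against 0.0% of 33854 isoforms in either direction, and 0 passed an unadjusted p under 0.05, against 1.88% higher and 3.9% lower. DESeq2 also called 0 member isoforms. Isoform usage, the proportions within a gene, was run for Cd44, Fcgr3 and Fcer1g, and 0 of the 3 were called (edgeR diffSpliceDGE, Simes adjusted p = 1.0 for each), against 0.0131% of 7639 genes. For Fcgr3 this test could not show a difference, because its 2 tested isoforms differed by at most 2 counts in a library. It was limited for Cd44 too, where a pair of the 3 tested isoforms differed by at most 1 count. Isoform counts of a gene summed to the gene count in every library for all 10 genes.

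Counts of some isoforms were nearly equal in every library, so they cannot be read as separate measurements. Fcgr3-201 had 124, 189 and 204 counts in T1, T2 and T3, against 138, 363 and 68 in C1, C2 and C4. Fcgr3-204, which differs in the 3 bases printed above, had 123, 189 and 203 in T1, T2 and T3, against 138, 361 and 68 in C1, C2 and C4. The pair differed by at most 2 counts in a library. Cd44-201 and Cd44-207, 2340 and 1731 coding bases long, differed by at most 1 count. Fcer1g-203, with the extension printed above, took 47.8 ± 0.0697% of the counts of Fcer1g-201 and Fcer1g-203 in the TEPP-46 libraries and 48.2 ± 0.538% in the vehicle libraries (SD, n = 3 per group; exact two-sided permutation p = 0.4). Another 5 Fcer1g isoforms had no reference identifier and held 47.0 ± 1.58% of the gene's counts in the TEPP-46 libraries and 48.6 ± 2.52% in the vehicle libraries (SD, n = 3 per group).

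As a share of the gene's counts, 6 of the 30 isoforms of the 7 members with several isoforms did not overlap between the groups, against 9.96% of isoforms in all genes compared this way (5.47% higher and 4.49% lower in TEPP-46). They were Ms4a7-202 and Ms4a7-204, higher in TEPP-46, and Ms4a7-203, Cd44-202 and 2 Fcer1g isoforms without a reference identifier, lower in TEPP-46. Shares within a gene depend on each other. Cd44-202 had 0 of 12, 1 of 44 and 3 of 59 Cd44 counts in T1, T2 and T3, against 1 of 17, 4 of 58 and 2 of 10 in C1, C2 and C4. Of the Fcer1g isoforms, the deeper one took 15.91, 15.66 and 15.68% in T1, T2 and T3, against 15.97, 16.04 and 16.10% in C1, C2 and C4. Ms4a7-202, which lacks the exon printed above, had 8, 9 and 15 counts in T1, T2 and T3, against 0, 11 and 0 in C1, C2 and C4. Its share of the counts of Ms4a7-202 and Ms4a7-203 was 26.7, 28.1 and 28.8% in T1, T2 and T3, against 0, 17.5 and 0% in C1, C2 and C4. All 3 TEPP-46 libraries were above all 3 vehicle libraries, with exact two-sided permutation p = 0.1, the smallest that 3 libraries against 3 allow (0.88 after adjustment over the 11 ratios and shares). The vehicle zeros rest on totals of 6 counts in C1 and 5 in C4, where the exact binomial 95% interval reaches up to 45.9% in C1 and 52.2% in C4. The same interval was 17.1 to 43.1% in T3 and 9.05 to 29.1% in C2. Overlap of intervals from single libraries cannot decide whether the groups differ, and the permutation test did not pass after adjustment. Summed over libraries, the share was 32 of 114 counts in TEPP-46 (28.1%, 20.1 to 37.3) and 11 of 74 in vehicle (14.9%, 7.66 to 25.0). These intervals cover counting error only and treat isoform counts as separate reads. For comparison, 10.9% of tested isoforms had CPM that did not overlap between the groups (5.73% higher and 5.18% lower in TEPP-46).

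Isoforms annotated from each of the 2 RefSeq starts of Ms4a7 and of F13a1 had counts. Where the reads themselves began was not tested. Ms4a7-201 is annotated from the downstream of the 2 Ms4a7 starts. Of the counts of Ms4a7-201, Ms4a7-202 and Ms4a7-203, it took 29 of 143 in TEPP-46 (20.3%, exact binomial 95% interval 14.0 to 27.8). In vehicle it took 16 of 90 (17.8%, 10.5 to 27.3). Ms4a7-204, with 24 counts, is annotated from a start further downstream and was left out of this share. F13a1-202, from the upstream start, took 21 of 66 F13a1 counts in TEPP-46 (31.8%, 20.9 to 44.4) and 22 of 78 in vehicle (28.2%, 18.6 to 39.5). Per library the F13a1-202 share was 18.2, 25.0 and 37.2% in T1, T2 and T3, against 42.9, 24.6 and 35.7% in C1, C2 and C4. The groups overlapped for both of these shares, and the intervals are too wide to show a difference of a few percentage points. F13a1-201 and F13a1-202 have the same coding length of 2196 bases.

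**Figure D5:**
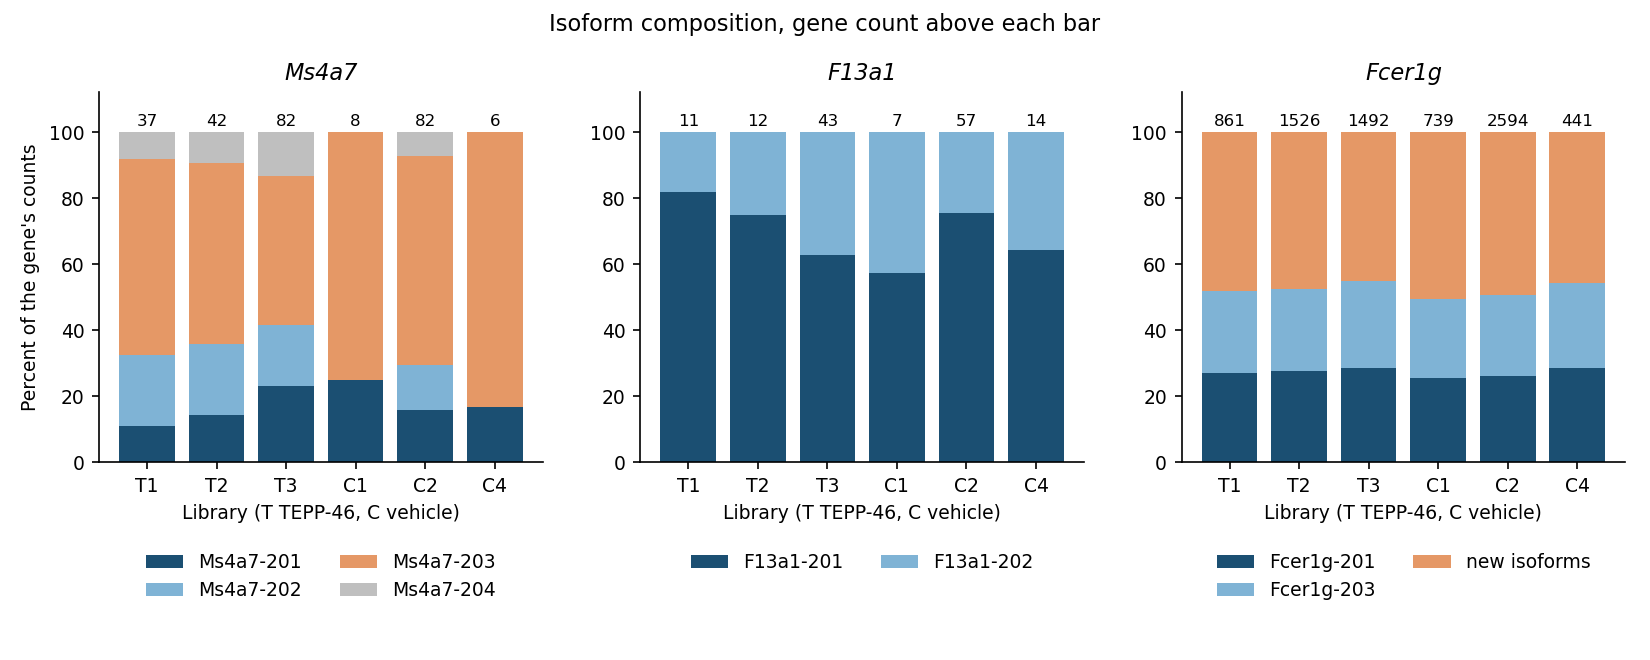
Percent of the gene's counts taken by each isoform of Ms4a7, F13a1 and Fcer1g in the TEPP-46 libraries (T1 to T3) and the vehicle libraries (C1, C2 and C4), with the gene's count above each bar. Ms4a7-202 (light blue) has 0 counts in C1 and C4, where Ms4a7 has 8 and 6 counts, and the Fcer1g shares are nearly the same in all 6 libraries.

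The remaining members had little isoform detail. Lyz2, Ms4a6c and Mrc1 had 1 isoform each in the table, and Pf4-201 held 98.6% of Pf4 counts. Ccr2 counts were divided among 4 isoforms of the same coding length, the largest of which held 38.2% of 55 counts.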

How the data were processed

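Raw counts per gene and per isoform were deposited by the authors for 6 libraries, per the file headers, and the build GRCm38 and DESeq 1.10.1 are listed, per the submitters' processing notes. The aligner, the counting tool and any use of strand are not stated there. Column letters tie a library to TEPP-46 (T) or vehicle (C), and the column numbers are not the samples' numbers in the labels. The labels do not call the libraries separate animals, so a p-value covers only the spread among these samples, which may be technical. Another 12 columns of per-library values were not used. The authors' deposited p-values and log2 fold changes are printed only where named.

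CPM (count over library total) was computed from the counts. Gene and isoform tests used edgeR 4.0.16 under R 4.3.3 (filterByExpr, TMM, robust quasi-likelihood F test, group as the only term), with Benjamini-Hochberg adjustment over all features tested and a threshold of 0.05. DESeq2 1.42.0, limma 3.58.1 voom, other scalings, no filter and leaving out each library were alternatives. Single values were compared with exact permutation tests (scipy 1.17.1). Intervals are exact binomial at 95%. Coordinates are GENCODE M21 and promoters RefSeq, both GRCm38.

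The members and lists were chosen with earlier results of these data known. Named were all members, from each list the called genes or else the 2 deepest tested ones, and the 5 genes most like the members. Near relatives and defining markers outside this rule were named after their values were seen. A few list genes chosen this way are not reported here.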

Additional observations from a re-analysis of the deposited data

How the results depend on the processing

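No member or member isoform was called under any setting run. No paired analysis was possible because the column numbers (C1, C2 and C4, T1 to T3) are not the sample numbers of the labels, so no replicate block could be formed. In edgeR, with all libraries, 0 genes and 0 isoforms were called, and 856 genes and 1954 isoforms reached an unadjusted p under 0.05. DESeq2 called 85 genes and 148 isoforms, and edgeR without the low-count filter called 165 isoforms. Leaving out each library gave 0 to 43 called genes, 0 to 178 called isoforms and 0 to 1 called list genes, the highest each time without C2, where the list gene was Tgm1. The cause was not tested.

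Over other scalings, filters and tools, 50 of 54 fold changes of tested members kept their sign. With limma-voom the log2 fold change turned to 0.72 for Lyz2, 0.29 for Ms4a6c, 0.12 for Ccr2 and 0.077 for Fcgr3. Leaving out 1 library turned 18 of 54, and the values ran from -1.10 to 0.61 for Ccr2, -1.25 to 0.99 for F13a1, -0.50 to 1.27 for Ms4a6c, -0.81 to 2.06 for Lyz2, -0.98 to 1.01 for Pf4, 0.23 to 2.85 for Ms4a7, -0.078 to 1.44 for Cd44, -0.55 to 0.67 for Fcgr3 and -0.38 to 1.06 for Fcer1g. Of the 5 genes most like the members, 4 stayed among the 5 with a pseudocount of 0.5 CPM, 3 with 5 CPM and 1 with group means subtracted, where each kept an r of at least 0.992.

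Depth limits Ccr2, Mrc1, F13a1 and Ms4a6c most, since single libraries hold 1 to 57 of their counts. Differences smaller than the spread between libraries could not be seen at 3 libraries a group.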
